A study of Homo sapiens with 9 samples.

Results

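Interferon regulatory factors (IRFs) are transcription factors that bind DNA through a conserved amino-terminal domain and switch on interferon genes and the genes that interferons induce. The genes described here are IRF1, IRF2, IRF3, IRF4, IRF5, IRF7 and IRF8. They were taken by gene name from the probe annotation of the arrays and are 7 of the 43395 genes named on the array. The rule itself used no measured value, but it and the gene lists below were set with earlier results of these data known. They carry 8 probes, because IRF3 has 2 and each of the other genes has 1. IRF9, which is part of the interferon-activated complex ISGF3, is not among them and appears only as a reference.

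RNA was measured on 9 single-color Agilent microarrays from 3 stable lines of T47D, an established luminal breast cancer cell line. T47D-VC1 received the empty vector, T47D-PA5 expresses incomplete (truncated) PTH-AS and T47D-PA6 expresses full-length PTH-AS, a long noncoding RNA antisense to the parathyroid hormone gene, with 3 arrays per line. All 3 lines share the T47D background. The methods describe stable clones, with vector controls included, as selected with G418 or puromycin, and G418 is named for the lines that carry PTH-AS. A single selected line was used for each vector, so that the vector and the line cannot be told apart. The sources used here do not say whether the arrays of a line come from separate cultures, and the p-values then measure only the spread between these arrays. The comparisons ask how the RNA level of each IRF gene differs between T47D-PA6, T47D-PA5 and T47D-VC1.

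IRF3 is made constitutively in most cells and is switched on by phosphorylation when sensors of foreign nucleic acid signal through TBK1. IRF7 is known as an interferon-induced gene whose protein, once phosphorylated, drives interferon-alpha genes, so that it amplifies a first interferon signal. IRF1 is induced by interferon-gamma and other cytokines and activates antigen processing and antiviral genes, IRF2 binds the same DNA element and often opposes IRF1, IRF5 acts downstream of Toll-like receptors, and IRF4 and IRF8 belong to lymphoid and myeloid cells. Arrays measure RNA, and neither phosphorylation nor nuclear entry of these proteins was measured.

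The probe sequences of IRF7 and IRF3 are shown because they fix which piece of each transcript was read. The IRF7 probe, on chromosome 11 at chr11:612643-612702 of hg19 on the minus strand, reads the end of the coding sequence, and its capitals mark the stop codon. The probes of IRF3, on the minus strand of chromosome 19, follow each other in the transcript and share 5 bases, in capitals. The first spans 50164080 to 50165258, a stretch of 1179 bases for a probe of 60 bases, and so crosses an intron, whereas the second lies within 50164025 to 50164084.
IRF7 probe: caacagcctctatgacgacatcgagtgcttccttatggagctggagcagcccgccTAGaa
IRF3 probe 1: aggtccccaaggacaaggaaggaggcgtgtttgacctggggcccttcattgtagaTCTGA
IRF3 probe 2: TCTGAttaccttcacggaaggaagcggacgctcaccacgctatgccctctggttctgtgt

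The promoter of IRF1 is shown because it holds a match to an element read by interferon signaling. The gamma-activated site (GAS), TTCNNNGAA, is the motif bound by STAT dimers, and the core of the interferon-stimulated response element (ISRE), bound by ISGF3 and by IRF proteins, was taken as GAAA, any 2 bases and GAAA again. Both were searched on both strands in the RefSeq promoter windows of GRCh38.p14, which run from 250 bases before a gene's start to 50 after it. Windows were at hand for IRF1, IRF4, IRF5 and IRF8, 4 of the 7 genes, with 8 windows in all. The IRF1 window held 1 GAS match, TTCCCCGAA, at positions -124 to -116 from the start, and no match to the ISRE core. None of the windows of IRF4, IRF5 and IRF8 held either motif. Of all 35116 windows, 7.66% held the GAS letters and 3.57% the ISRE core letters. A match is a description of the letters and not a shown binding site. The bases before the start of IRF1 (chr5:132490774-132491023 of GRCh38.p14, minus strand, 5′ to 3′), with the GAS match in capitals, are as follows.
IRF1 promoter: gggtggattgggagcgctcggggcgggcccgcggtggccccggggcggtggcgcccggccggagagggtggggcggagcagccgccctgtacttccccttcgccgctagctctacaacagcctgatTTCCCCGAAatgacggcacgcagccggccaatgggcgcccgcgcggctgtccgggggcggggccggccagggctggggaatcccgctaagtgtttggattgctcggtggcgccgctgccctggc

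On each array, 44% to 48% of the probes were well above background, the mark that the scanner software gives to a spot brighter than its surroundings, and no spot was saturated. A signal below is a quantile-normalized intensity in linear units, a mean is a geometric mean over 3 arrays, and its SD is on the log2 scale. On the 9 arrays, the dimmest signal so marked was 9.59 to 15.2. A gene was tested when a probe of it was well above background on all 3 arrays of at least 1 line, which held for 20106 genes. Of the 7 IRF genes, IRF1, IRF2, IRF3, IRF5 and IRF7 were tested and IRF4 and IRF8 were not. Because each probe has its own brightness, levels are compared between lines within a gene and never between genes. The first replicate of every line shared slide 1 and an earlier scan run, and the other replicates were scanned in a later run, those of T47D-VC1 and T47D-PA5 on slides 2 and 3 and both of T47D-PA6 on slide 3.

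Against T47D-VC1, T47D-PA6 had higher levels of 3 of the 5 tested IRF genes, namely IRF7, IRF1 and IRF5, and 0 fell (adjusted p under 0.05 in limma, fitted over all tested genes). Of all tested genes, 10% were called in this comparison, 4.69% higher and 5.34% lower. In T47D-PA5 compared with T47D-VC1, only IRF7 of the 5 rose and 0 fell, while 1.67% of all genes were called, 1.37% higher and 0.298% lower. In T47D-PA6 compared with T47D-PA5, IRF7 and IRF1 rose and 0 fell, while 9.71% of all genes were called, 3.65% higher and 6.06% lower. The first 2 comparisons share the T47D-VC1 arrays. Over the 5 genes the log2 fold change had a median of 0.46, 0.32 and 0.14 in these comparisons, and over all genes of -0.03, -0.03 and 0. The plot of signals by array shows the 5 genes together.

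**Figure D1:**
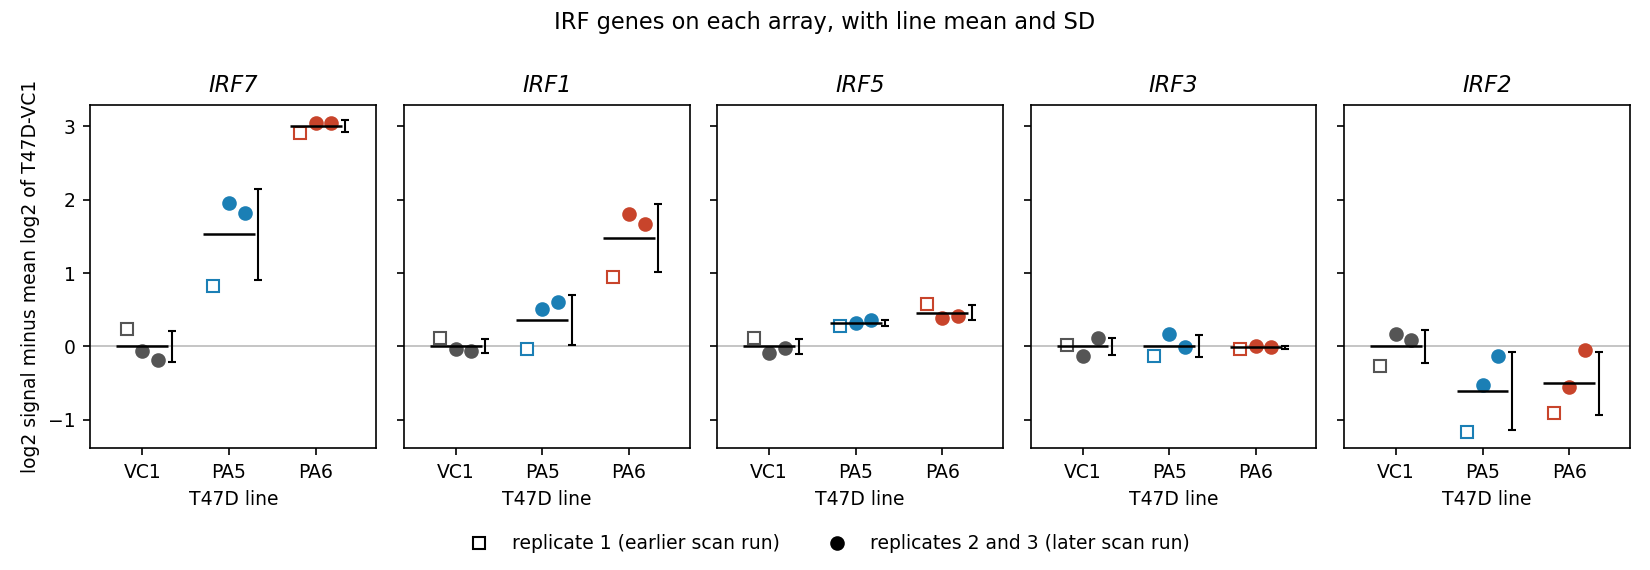
Log2 signal of the 5 tested IRF genes on each of 9 arrays, minus the mean log2 signal of T47D-VC1 for the same gene (vertical axis), by line (horizontal axis). Open squares are replicate 1 (earlier scan run), filled circles are replicates 2 and 3, horizontal lines are line means and vertical bars are the SD (n = 3); IRF7 reaches a mean of 3 in T47D-PA6 and 1.53 in T47D-PA5, whereas IRF3 stays at -0.01 and 0.01.

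IRF7 was the most changed of these genes. Its signal was 1673, 1362 and 1257 on the 3 T47D-VC1 arrays, 2513, 5494 and 5029 on those of T47D-PA5, and 10659, 11703 and 11733 on those of T47D-PA6. The arrays of the 3 lines did not overlap, and replicate 1 of T47D-PA5 was the lowest of its line. The means were 1420.1 (SD 0.21), 4110.1 (SD 0.62) and 11354 (SD 0.08).

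The rise of IRF7 in T47D-PA6 over T47D-VC1 was 7.99-fold, or 3 on the log2 scale, with a standard error of 0.27 and a 95% interval of 2.38 to 3.62 (adjusted p = 0.00072, limma). It was the rise of rank 89 among the 20106 genes. In T47D-PA5 over T47D-VC1 the rise was 2.89-fold (log2 1.53, standard error 0.27, adjusted p = 0.033), and in T47D-PA6 over T47D-PA5 it was 2.76-fold (log2 1.47, standard error 0.27, adjusted p = 0.014). T47D-PA5 thus lay about midway between the other lines on the log2 scale.

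Between scan runs, the size of the IRF7 difference moved most where T47D-PA5 was involved. Within the earlier run, with 1 array per line, the log2 fold change was 2.67 in T47D-PA6 over T47D-VC1, 0.59 in T47D-PA5 over T47D-VC1 and 2.08 in T47D-PA6 over T47D-PA5. Within the later run, with 2 arrays per line, it was 3.16, 2.01 and 1.16. When slides were blocked in the fit, the adjusted p was 0.0037, 0.044 and 0.029. The call in T47D-PA6 over T47D-VC1 held in all 22 alternatives with a test. The call in T47D-PA5 over T47D-VC1 was lost without T47D-VC1 replicate 2 (adjusted p = 0.099, limma), T47D-VC1 replicate 3 (0.14), T47D-PA5 replicate 2 (0.12), T47D-PA5 replicate 3 (0.14), T47D-PA6 replicate 2 (0.066) or T47D-PA6 replicate 3 (0.065), and also without the filter on dim probes (0.11), with the fit limited to the compared lines (0.084) and with the methods' t-test, which takes each gene on its own (0.22). The call in T47D-PA6 over T47D-PA5 was lost without T47D-PA6 replicate 2 or replicate 3 (adjusted p = 0.058 for each, limma), without the filter on dim probes (0.05) and with the methods' t-test (0.12).

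The IRF7 pattern was close to that of IRF9, the DNA-binding partner in ISGF3. The mean signal of IRF9 was 194 for T47D-VC1, 768 for T47D-PA5 and 1734 for T47D-PA6, and its log2 fold change was 3.16 in T47D-PA6 over T47D-VC1 (adjusted p = 0.0005), 1.99 in T47D-PA5 over T47D-VC1 (adjusted p = 0.0089) and 1.17 in T47D-PA6 over T47D-PA5 (adjusted p = 0.025) in limma. The last of these calls was lost in 6 of 22 alternatives, among them those without T47D-PA6 replicate 2 (adjusted p = 0.09, limma) or replicate 3 (0.091), and the second in 2, among them that without T47D-VC1 replicate 3 (0.05). These values are from the brighter probe of IRF9. A dimmer tested probe gave 0.63 in T47D-PA6 over T47D-PA5 and was not called there (adjusted p = 0.4, limma over all tested probes). It was well above background on 0 T47D-VC1 arrays and was called higher than T47D-VC1 in T47D-PA6 and T47D-PA5 (adjusted p = 0.0047 and 0.036). After each gene's own mean was subtracted, the root mean square difference between IRF7 and the brighter probe of IRF9 over the 9 arrays was 0.24 on the log2 scale. The same distance from IRF7 was 0.69 for IRF1, 1.08 for IRF5, 1.26 for IRF3 and 1.47 for IRF2. The values were not scaled, so this distance depends on the size of a gene's change as well as on its shape.

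IRF1 rose in T47D-PA6 against both other lines, and its difference between T47D-PA5 and T47D-VC1 was not called. Its probe, at chr5:131819442-131819501 of hg19 on the minus strand, gave signals of 42, 37.9 and 37.4 on the T47D-VC1 arrays, 38.3, 55.5 and 59 on the T47D-PA5 arrays and 75.6, 137 and 124 on the T47D-PA6 arrays. Every T47D-PA6 array was above every other array, whereas the T47D-PA5 arrays overlapped those of T47D-VC1. The means were 39 (SD 0.09), 50.1 (SD 0.34) and 109 (SD 0.46), so the arrays within T47D-PA5 and T47D-PA6 differed more than those within T47D-VC1.

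The log2 fold change of IRF1 in T47D-PA6 over T47D-VC1 was 1.48, or 2.78-fold, with a standard error of 0.24 and a 95% interval of 0.92 to 2.03 (adjusted p = 0.009, limma). It was 1.12 in T47D-PA6 over T47D-PA5 (adjusted p = 0.025) and 0.36 in T47D-PA5 over T47D-VC1, with an interval of -0.19 to 0.91 (adjusted p = 0.54). Within the earlier run the values were 0.85, 0.98 and -0.13, and within the later run 1.79, 1.19 and 0.61, in the order T47D-PA6 over T47D-VC1, T47D-PA6 over T47D-PA5 and T47D-PA5 over T47D-VC1. IRF1 was therefore lower in replicate 1 of T47D-PA5 and T47D-PA6 than in the other replicates of these lines. With normexp background correction, the difference from T47D-VC1 to T47D-PA6 was 0.71 in place of 1.48 on the log2 scale (adjusted p = 0.0081, limma). The call in T47D-PA6 over T47D-PA5 was lost without T47D-PA5 replicate 1 (adjusted p = 0.061, limma), T47D-PA5 replicate 2 (0.063), T47D-PA5 replicate 3 (0.054), T47D-PA6 replicate 2 (0.094) or T47D-PA6 replicate 3 (0.097), and also without the filter on dim probes (0.077), with the compared lines alone (0.061) and with the methods' t-test (0.15).

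The gene tested nearest to the IRF1 probe on its lower side was CARINH, a long noncoding RNA gene next to IRF1 that the array files list under the older name C5orf56. Its probe, at chr5:131811624-131811683 of hg19, lies 7.82 kb from that of IRF1. Its signal was 196, 148 and 131 on the T47D-VC1 arrays, 136, 359 and 327 on the T47D-PA5 arrays and 487, 766 and 842 on the T47D-PA6 arrays. As with IRF1, all T47D-PA6 arrays were the highest, and replicate 1 of T47D-PA5 lay among the T47D-VC1 arrays. The log2 fold change was 2.12 in T47D-PA6 over T47D-VC1 (standard error 0.38, adjusted p = 0.012, limma), 1.43 in T47D-PA6 over T47D-PA5 (adjusted p = 0.049) and 0.69 in T47D-PA5 over T47D-VC1 (adjusted p = 0.44). The first of these calls was lost without T47D-VC1 replicate 3 (adjusted p = 0.055, limma), T47D-PA6 replicate 2 (0.051) or T47D-PA6 replicate 3 (0.055) and with the methods' t-test (0.065), and the second in 14 of 22 alternatives, with the slide as a block among them (adjusted p = 0.065, limma). On the upper side, the nearest tested gene lay 154 kb away and differed by -0.02 on the log2 scale between T47D-PA6 and T47D-VC1.

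The neighbors of the other IRF genes were not called. PHRF1, whose probe lies 0.712 kb from that of IRF7, had log2 fold changes of -0.02, -0.08 and 0.06 in T47D-PA6 over T47D-VC1, T47D-PA5 over T47D-VC1 and T47D-PA6 over T47D-PA5. On either side of IRF3, SCAF1 and BCL2L12 had log2 fold changes of 0.04 and 0.15 in T47D-PA6 over T47D-VC1. Near IRF5, KCP, at 72.4 kb, had a log2 fold change of 0.45 (adjusted p = 0.061, limma) and TNPO3, at 18 kb, one of 0.06 in the same comparison.

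**Figure D2:**
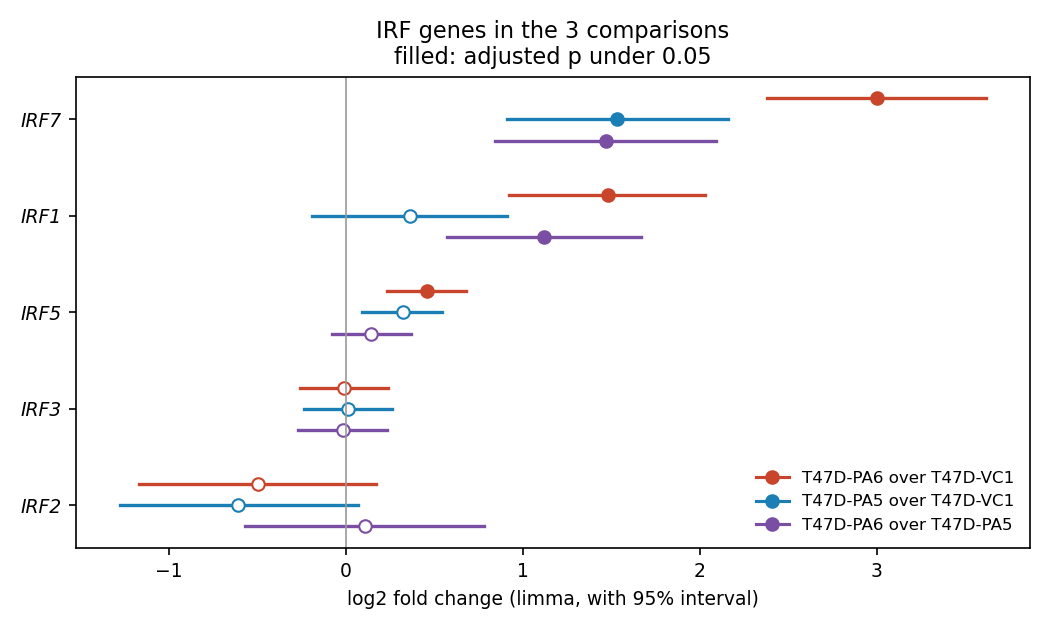
Log2 fold change (horizontal axis) of the 5 tested IRF genes in 3 comparisons, from 1 limma fit over 9 arrays with 3 per line. Bars are 95% intervals and filled points have an adjusted p under 0.05; the intervals of IRF7 lie above 0 in every comparison, and those of IRF3 and IRF2 include 0.

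IRF5 changed by less. Its probe, at chr7:128589323-128589382 of hg19 on the plus strand, gave signals of 1670.2, 1454 and 1534 on the T47D-VC1 arrays, 1881, 1932 and 1987 on the T47D-PA5 arrays and 2317, 2025 and 2062 on the T47D-PA6 arrays. The arrays of the 3 lines did not overlap, although the highest T47D-PA5 array and the lowest T47D-PA6 array were close. The rise in T47D-PA6 over T47D-VC1 was 1.37-fold, a log2 fold change of 0.46 with a 95% interval of 0.23 to 0.68 (standard error 0.10, adjusted p = 0.025, limma). It was 0.47 within the earlier run and 0.45 within the later run. In T47D-PA5 over T47D-VC1 the log2 fold change was 0.32 (interval 0.09 to 0.54, adjusted p = 0.17, limma), and in T47D-PA6 over T47D-PA5 it was 0.14 (interval -0.08 to 0.37, adjusted p = 0.43). The single call of IRF5 was lost in 8 of 22 alternatives, namely with the methods' t-test (adjusted p = 0.089), with the compared lines alone (0.071, limma) and without T47D-VC1 replicate 2 (adjusted p = 0.084, limma), T47D-VC1 replicate 3 (0.092), T47D-PA5 replicate 2 (0.05), T47D-PA5 replicate 3 (0.051), T47D-PA6 replicate 2 (0.064) or T47D-PA6 replicate 3 (0.077).

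IRF3, the constitutive factor, had overlapping arrays in all 3 lines. Its first probe gave 815, 739 and 871 on the T47D-VC1 arrays, 735, 908 and 801 on the T47D-PA5 arrays and 792, 812 and 801 on the T47D-PA6 arrays. The log2 fold changes were -0.01 in T47D-PA6 over T47D-VC1, 0.01 in T47D-PA5 over T47D-VC1 and -0.02 in T47D-PA6 over T47D-PA5, with a standard error of 0.11. The 95% intervals of this probe were -0.26 to 0.24, -0.24 to 0.26 and -0.27 to 0.23. The second probe, which shares 5 bases with the first, gave 0.12, 0.05 and 0.08, also with a standard error of 0.11.

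IRF2, the frequent antagonist of IRF1, was dim and varied between arrays. The files list 16 of the 60 bases of its probe, at chr4:185308860-185308875 of hg19. The signals were 34.1, 46.3 and 43.6 on the T47D-VC1 arrays, 18.2, 28.7 and 37.4 on the T47D-PA5 arrays and 21.9, 28.1 and 39.6 on the T47D-PA6 arrays. The lines overlapped, and replicate 1 of T47D-PA5, with the value of 18.2, was not well above background. The log2 fold change was -0.50 in T47D-PA6 over T47D-VC1 (interval -1.17 to 0.17, adjusted p = 0.33, limma) and -0.61 in T47D-PA5 over T47D-VC1 (interval -1.28 to 0.07, adjusted p = 0.38). Differences of these sizes were not past the spread between the arrays, and the intervals are wide.

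IRF4 and IRF8, the factors of lymphoid and myeloid cells, were well above background on 0 of 9 arrays. IRF4, read at chr6:411002-411061 of hg19, had signals of 2.48 to 9.67, and IRF8, read at chr16:85956052-85956111, had signals of 2.7 to 3.54. No fold is given for either gene. As a check of the labeled cell type, the 14 luminal breast markers listed, such as KRT8, KRT18, EPCAM, GATA3 and FOXA1, were well above background on all 9 arrays. The summed signal was 672146 to 712075 for T47D-VC1, 672089.6 to 694822 for T47D-PA5 and 669065 to 697601 for T47D-PA6. KRT19 was the largest part of these sums, with a mean of 301366 and an SD of 0 in T47D-VC1 and in T47D-PA5. Its mean in T47D-PA6 was 292579. The sums therefore say little about the other markers. Of these 14 markers, TFF1 was called higher and PGR lower in T47D-PA6 over T47D-VC1, with log2 fold changes of 1.62 and -1.07. Of all tested genes, 4.69% were called higher and 5.34% lower in this comparison. Of the 15 blood cell markers on the array, 6 were well above background on every array and 6, namely CD2, CD3E, CD79B, CSF1R, ITGAX and MS4A1, on none. Their summed signal was 2515 to 2741 for T47D-VC1, 2373 to 2801 for T47D-PA5 and 3043 to 3299.8 in T47D-PA6. Of the 7 blood cell markers tested, 2 were called higher in T47D-PA6 over T47D-VC1 and 0 lower, beside the same 4.69% and 5.34% of all tested genes. LAPTM5, a lysosomal protein of blood cells, was at least 4.66-fold higher (adjusted p = 0.00063, limma), and CD14 had a log2 fold change of 1.80 (adjusted p = 0.0082). LAPTM5 passed the background filter through T47D-PA6 alone, the line where it was high, so that its call was set in part by the filter. With normexp the log2 fold changes of LAPTM5 and CD14 were 0.98 and 1.08, and with the methods' t-test neither was called (adjusted p = 0.053 and 0.11). The part of these markers in the IRF values was not tested. In such bulk RNA, a difference in the number of expressing cells and a difference in RNA per cell cannot be told apart.

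For each IRF gene that was called, the 5 tested genes with the nearest pattern over the 9 arrays were sought, as the smallest root mean square difference of log2 signal after each gene's own mean was subtracted. Nearest to IRF7 were SAMD9L (0.13), DTX3L (0.17), PARP14 (0.18), PARP9 (0.18) and OAS3 (0.22). Nearest to IRF1 were HCP5 (0.12), B2M (0.14), GRK3 (0.17) and a pair of unnamed or long noncoding transcripts. Nearest to IRF5 were LMTK3 (0.05), PSMG3-AS1 (0.05), PRKD2 (0.05), TRIM25 (0.06) and a probe without a gene name. B2M is the light chain of MHC class I, OAS3 makes oligoadenylates that activate RNase L, and TRIM25 is a ubiquitin ligase. These distances describe 9 arrays that share lines and scan runs, depend on the size of change as well as on its shape, and carry no test.

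**Figure D3:**
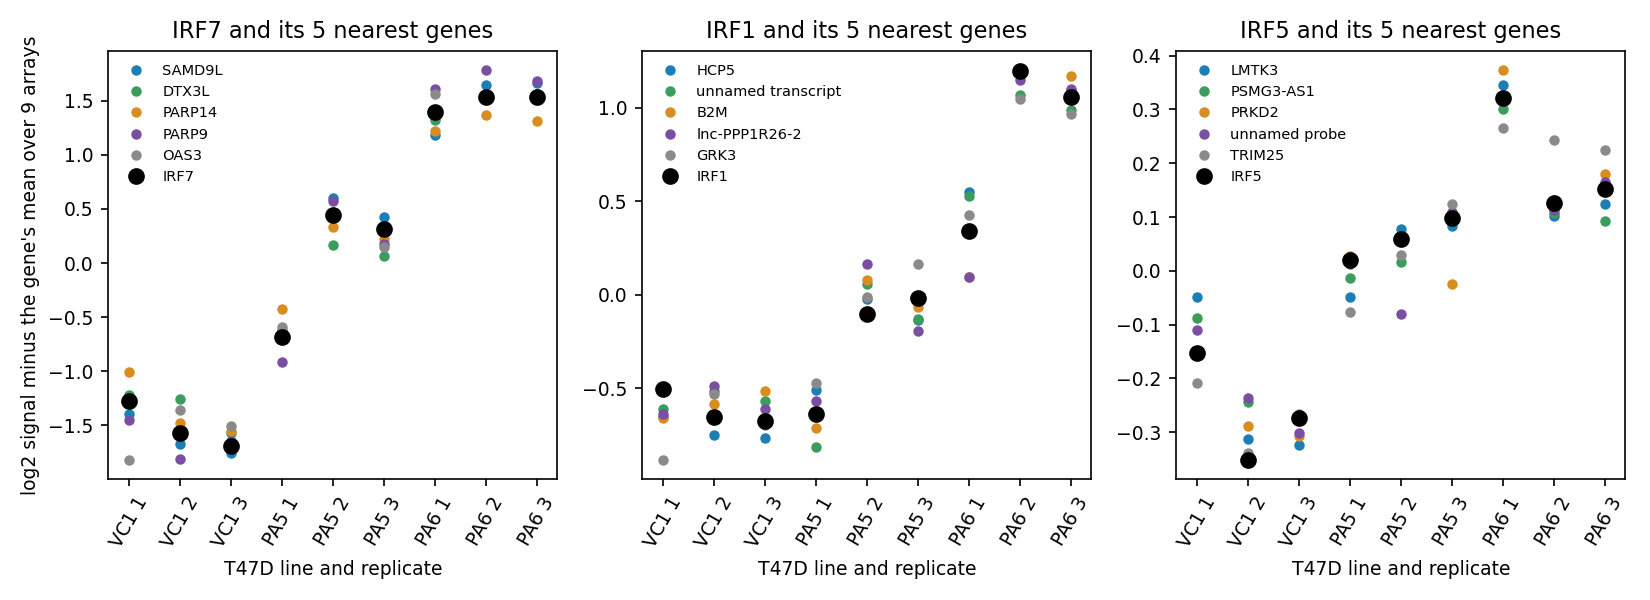
Log2 signal minus each gene's own mean over 9 arrays (vertical axis) on each array (horizontal axis), for IRF7, IRF1 and IRF5 (large black points) and the 5 genes nearest to each (small points). IRF7 and its neighbors in pattern separate the 3 lines, and replicate 1 of T47D-PA5 lies below the other T47D-PA5 arrays for IRF7 and for IRF1. The vertical scales differ between panels.

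Among the genes whose proteins activate IRFs, STING1 and MYD88 rose and IKBKE fell in T47D-PA6 over T47D-VC1. Of 17 listed sensors' adaptors and kinases, 16 were tested and 3 called, beside 10% of all tested genes, and the median log2 fold change was -0.03 for the list and for all genes. STING1, the adaptor of the DNA sensor cGAS, had signals of 328, 329 and 303 on the T47D-VC1 arrays, 280.2, 404 and 355 on the T47D-PA5 arrays and 693, 765 and 728 on the T47D-PA6 arrays. Only T47D-PA6 stood apart, with a rise of 1.19 on the log2 scale over T47D-VC1 (adjusted p = 0.0021, limma) and 1.09 over T47D-PA5 (adjusted p = 0.0039). MYD88, the adaptor of Toll-like receptors that engages IRF5 and IRF7, rose by 0.67 on the log2 scale over T47D-VC1 (adjusted p = 0.0046, limma).

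IKBKE was the member of this list that fell. It encodes IKKε, a kinase that, like TBK1, phosphorylates IRF3 and IRF7. Its signal was 42.4, 52.7 and 47.2 on the T47D-VC1 arrays, 66.7, 52.4 and 52.4 on the T47D-PA5 arrays and 20.7, 24.8 and 19.9 on the T47D-PA6 arrays. The T47D-PA6 arrays lay below all others, with a log2 difference of -1.12 from T47D-VC1 (adjusted p = 0.0032, limma) and -1.39 from T47D-PA5 (adjusted p = 0.0022). With normexp these differences were -0.42 and -0.54 (adjusted p = 0.012 and 0.0035, limma), and with the methods' t-test the first was not called (adjusted p = 0.051). TBK1 had log2 fold changes of -0.10, -0.16 and 0.06 in T47D-PA6 over T47D-VC1, T47D-PA5 over T47D-VC1 and T47D-PA6 over T47D-PA5, and the RNA sensor adaptor MAVS -0.03, 0.14 and -0.17. In T47D-PA5 over T47D-VC1, 0 of the 16 activators were called, beside 1.67% of all tested genes.

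For 7 genes of the signaling that induces IRF genes, the median log2 fold change was 0.07 in T47D-PA6 over T47D-VC1. Beside 4.69% of all tested genes called higher in this comparison, 2 of the 7 rose. They were IRF9 and STAT2, its partner in ISGF3, with mean signals of STAT2 of 4852 (T47D-VC1), 6459 (T47D-PA5) and 11378 (T47D-PA6) and a log2 fold change of 1.23 (adjusted p = 0.0081, limma). The Janus kinases JAK1, JAK2 and TYK2 and the NF-kB subunits NFKB1 and RELA were not called. In T47D-PA5 over T47D-VC1, 1 of the 7 genes rose, beside 1.37% of all tested genes. In T47D-PA6 over T47D-PA5, 2 of the 7 rose, beside 3.65%. With 1 array left out, the called genes numbered 0 to 1 and 0 to 3 in these last comparisons.

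Of 11 genes for partners and regulators of IRF proteins, 9 were tested. In T47D-PA6 over T47D-VC1, 2 of the 9 rose, beside 4.69% of all tested genes. BATF2, a basic leucine zipper factor known to pair with IRF1 in macrophages, had signals of 29.4, 42.7 and 41.6 on the T47D-VC1 arrays, 68.2, 254 and 223 on the T47D-PA5 arrays and 615, 1052 and 1189 on the T47D-PA6 arrays. The lines did not overlap, and the log2 fold change was 4.61 in T47D-PA6 over T47D-VC1 (standard error 0.48, adjusted p = 0.0013, limma). TRIM21, a ubiquitin ligase that targets IRF proteins, had a log2 fold change of 1.68 (adjusted p = 0.00061, limma), or 1.04 with normexp. The median of the 9 genes was 0.21. In T47D-PA5 over T47D-VC1, 0 of the 9 were called, beside 1.67% of all tested genes. In T47D-PA6 over T47D-PA5, 3 of the 9 rose, beside 3.65% called higher. With 1 array left out, the called genes numbered 0 to 2 and 1 to 3 in these last comparisons.

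Of 19 known target genes of IRF1, 13 were tested, with a median log2 fold change of 1.21 in T47D-PA6 over T47D-VC1. Beside 4.69% of all tested genes called higher and 5.34% lower in this comparison, 10 of the 13 rose and 0 fell. These include CASP1, the inflammasome protease, at least 3.66-fold higher (adjusted p = 0.0028), PSMB9, a subunit of the immunoproteasome, with a log2 fold change of 2.40 (adjusted p = 0.00037), TLR3, a sensor of double-stranded RNA, with 2.14 (adjusted p = 0.024), and BST2, the antiviral protein tetherin, with 2 (adjusted p = 0.004), all in limma. CASP1 was well above background on 0 of the 3 T47D-VC1 arrays and TLR3 on 1, and with normexp their log2 fold changes were 0.69 and 0.59. Every one of the 9 arrays showed 10 of the 13 genes well above background, and 7 of these were called. In T47D-PA5 over T47D-VC1, 2 of the 13 rose, beside 1.37% of all tested genes. In T47D-PA6 over T47D-PA5, 4 of the 13 rose, beside 3.65% of all tested genes. The count of 10 was 4 without T47D-VC1 replicate 2 or 3 or without T47D-PA6 replicate 2 or 3, and 6 without T47D-PA5 replicate 2 or 3. The counts of 2 and 4 ranged from 0 to 6 and from 1 to 5 with 1 array left out. The call of TLR3 was lost without T47D-VC1 replicate 2 (adjusted p = 0.08, limma), T47D-VC1 replicate 3 (0.078), T47D-PA6 replicate 2 (0.062) or T47D-PA6 replicate 3 (0.068), and also without the filter on dim probes (0.079), with the compared lines alone (0.058) and with the methods' t-test (0.16). Many of these genes are also induced by ISGF3, and which factor acted on them was not measured.

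The interferon genes themselves were mostly dim. Of 25 known targets of IRF3 and IRF7, 22 were on the array and 10 were tested. Of the 15 not tested, 9 were on no array well above background, among them IFNA2, IFNA8 and CXCL10, and 3 had no probe under their name. IFNB1, the first interferon that IRF3 induces, was well above background on at most 2 of the 9 arrays. IFNL1, a type III interferon, was well above background on 0 T47D-VC1 arrays, on 2 T47D-PA5 arrays and on 3 T47D-PA6 arrays, with T47D-PA6 at least 4.69-fold above T47D-VC1 (adjusted p = 0.0026, limma). It was tested through T47D-PA6 alone, the line where it was high, and its call was set in part by that filter. IFNL2 had mean signals of 27.6, 51.5 and 191 in the 3 lines and rose by 2.79 on the log2 scale in T47D-PA6 over T47D-VC1 (adjusted p = 0.00057), which is uncertain as to the gene because IFNL2 and IFNL3 are nearly identical in sequence.

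Of the 10 targets of IRF3 and IRF7 that were tested, 9 rose in T47D-PA6 over T47D-VC1, 3 in T47D-PA5 over T47D-VC1 and 9 in T47D-PA6 over T47D-PA5, and 0 fell. Of all tested genes, 4.69%, 1.37% and 3.65% were called higher in these comparisons. The median log2 fold changes of the 10 targets were 4.94, 2.23 and 2.53. The first becomes 4.60 with genes that were dark in T47D-VC1 at their lower bound. ISG15, a ubiquitin-like modifier, rose by 6.34 on the log2 scale in T47D-PA6 over T47D-VC1 (adjusted p = 0.00037, limma), IFIT1 by 5.81 (adjusted p = 0.00038), IFIT3 by 5.64 (adjusted p = 0.00037), and RSAD2, the antiviral enzyme viperin, was at least 24.5-fold higher (adjusted p = 0.0018). RSAD2, like IFNL1, passed the filter through T47D-PA6 alone, and its fitted log2 fold change was 5.95, or 2.44 with normexp. Every one of the 9 arrays showed 7 of the 10 genes well above background, and 6 of these were called in T47D-PA6 over T47D-VC1. In T47D-PA6 over T47D-VC1 the count of 9 held without any 1 of the 9 arrays, whereas the count of 3 in T47D-PA5 over T47D-VC1 ranged from 0 (leaving out replicate 3 of T47D-VC1 or of T47D-PA5) to 6 (leaving out replicate 1 of T47D-PA5 or of T47D-PA6), and was 1 after leaving out replicate 2 of T47D-VC1 or of T47D-PA5. In T47D-PA6 over T47D-PA5 the count ranged from 6 to 9 with 1 array left out, and its lowest value over all alternatives was 0. The 9 genes called there include IFNL1 and RSAD2, which were tested through T47D-PA6 alone.

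**Figure D4:**
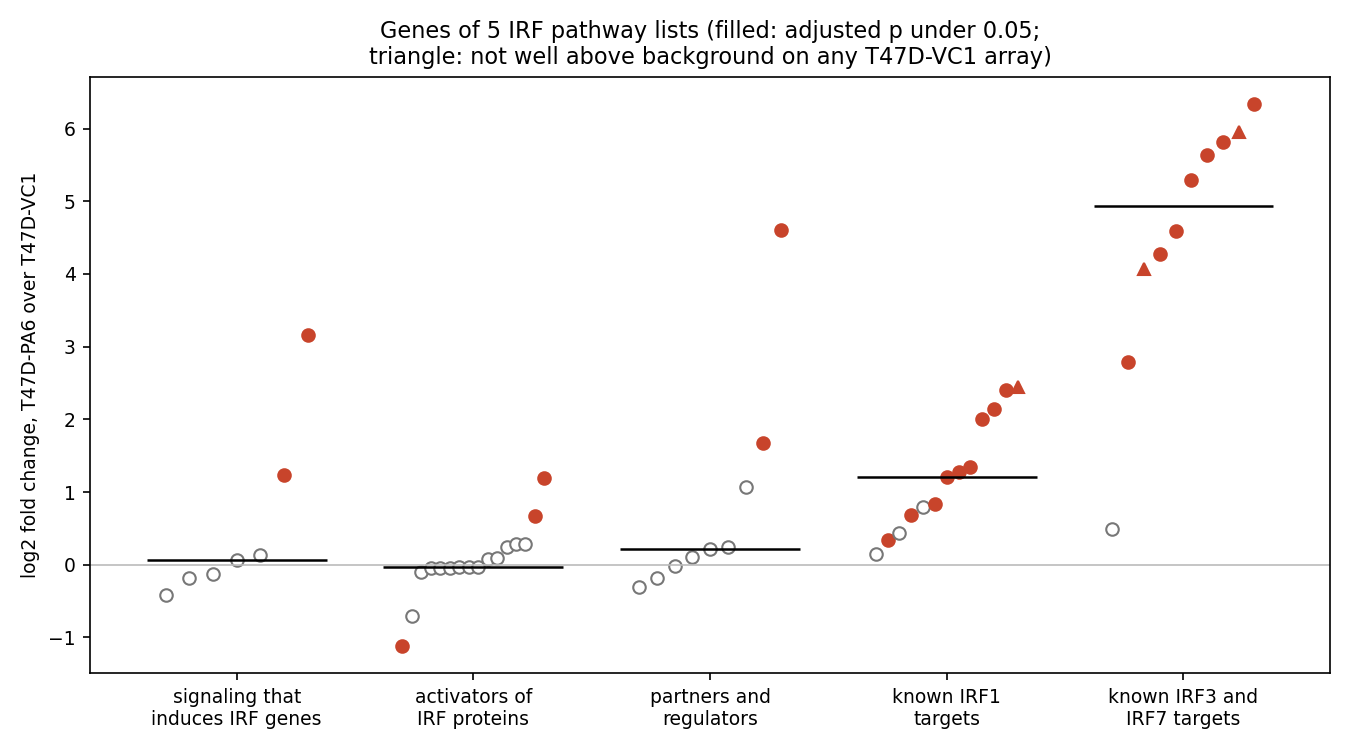
Log2 fold change between T47D-PA6 and T47D-VC1 (vertical axis) of the tested genes of 5 lists around the IRF proteins (horizontal axis), in order of size within each list. Filled points have an adjusted p under 0.05 in limma, triangles are genes that were dark in T47D-VC1 and whose fitted value is no bound, and horizontal lines are medians, 4.94 for the known IRF3 and IRF7 targets and -0.03 for the activators.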

How the data were processed

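The authors deposited, for each of 9 arrays, the intensity of every spot as Feature Extraction gave it (version 10.7.1.1 in the file headers, 9.5.1.1 in the submitters' processing notes), background-subtracted within the array, and a table of normalized intensities. These intensities were taken to the log2 scale, spots of a probe were averaged without outlier flags (46 to 117 spots per array), and arrays were quantile-normalized. The table gave 58201 probes, of which 26171 passed the background filter, and a gene was read from its brightest tested probe. The lines were compared in 1 fit with limma 3.58.1 in R 4.3.3 (lmFit and eBayes, 6 residual degrees of freedom), with Benjamini-Hochberg adjustment over 20106 genes and a threshold of 0.05. The fit was tested on simulated data. The number of arrays limits the precision. Gene names were updated with a RefSeq table. A fold against a line whose arrays were all at background is a bound, set by the lowest signal well above background.

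Named are the IRF genes, up to 4 called genes per list with the largest change in T47D-PA6 over T47D-VC1, the 5 nearest patterns and the nearest tested genes on either side. TBK1, MAVS, IFNL1, IFNL2, the kinases and subunits not called and the untested genes were named after their values were seen. The members and lists were chosen with earlier results of these data known. Results of some genes of these families are not reported here. Alternatives were a 75th percentile shift, normexp with an offset of 50, the authors' table, other filters and probe rules, blocks for slide and replicate, an intensity trend, the methods' t-test, the compared lines alone, single scan runs and each array left out.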

Additional observations from a re-analysis of the deposited data

How the results depend on the processing

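The values that depend most on the processing are the counts of called genes, and 3 arrays per line limit all of them. In the order T47D-PA6 over T47D-VC1, T47D-PA5 over T47D-VC1 and T47D-PA6 over T47D-PA5, the counts of called IRF genes were 3, 1 and 2. Without a filter on dim probes the last 2 were 0 and 0, with 2 genes each at an unadjusted p under 0.05. The methods' t-test gave 1, 0 and 0 after Benjamini-Hochberg adjustment, and 3, 2 and 2 at its unadjusted threshold. The compared lines alone gave 2 in T47D-PA6 over T47D-VC1, 0 in T47D-PA5 over T47D-VC1 and 1 in T47D-PA6 over T47D-PA5, the last 2 with 2 genes each at an unadjusted p under 0.05, and replicates 2 and 3 only gave 3 in T47D-PA5 over T47D-VC1. With 1 array left out, they ranged from 2 to 3, from 0 to 1 and from 0 to 2.

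Over all genes the counts were 2017, 335 and 1952. They were 1285, 198 and 1262 without the filter, 432, 39 and 790 with the methods' t-test, 7469, 4309 and 7142 with replicates 2 and 3 only, 608 for T47D-PA5 over T47D-VC1 with the slide as a block and 1146 for T47D-PA6 over T47D-VC1 with the compared lines alone, and ranged from 703 to 2768, from 99 to 621 and from 726 to 2950 with 1 array left out. The cause of these shifts was not tested. Deviations of arrays with the same replicate number correlated at 0.099 to 0.337. The first replicates shared a slide and a scan run, but the labels do not say what a number marks and 1 of the 9 pairs was not over 0.1, so the numbers were not taken to pair the arrays. With the replicate number as a block, 3, 1 and 2 IRF genes and 2617, 490 and 2427 genes in all were called.

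The fits with a test changed the sign of values near 0 only. Within the earlier scan run, with 1 array per line and no test, the sign of the log2 fold change in T47D-PA5 over T47D-VC1 turned for IRF1 (-0.13 in place of 0.36), IRF3 (-0.15), STAT2 (-0.23), STING1 (-0.23), CARINH (-0.53 in place of 0.69) and RSAD2 (-0.37 in place of 2.09), and for IRF3 in T47D-PA6 over T47D-PA5 (0.11). For IRF3 in T47D-PA6 over T47D-VC1 the log2 fold change was 0.06 as the mean of its probes and 0.01 with replicates 2 and 3 only, and -0.07 to 0.05 with 1 array left out. Between T47D-PA5 and T47D-VC1 it was 0 with the 75th percentile shift and -0.02 with normexp, and -0.07 to 0.08 with 1 array left out. In T47D-PA6 over T47D-PA5 it was 0 with normexp and 0.03 as the mean of probes, and -0.09 to 0.06 with 1 array left out. IRF2 in T47D-PA6 over T47D-PA5 ranged from -0.17 to 0.34 and STING1 in T47D-PA5 over T47D-VC1 from -0.02 to 0.24 with 1 array left out. The call of IRF1 in T47D-PA6 over T47D-VC1 was kept in 21 of 22 alternatives and lost with the methods' t-test (adjusted p = 0.088), and the adjusted p for IRF7 in that comparison was at most 0.0057 in limma and 0.014 in the methods' t-test.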
